A study of Danio rerio with 12 samples.

Results

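The tumor cells of zebrafish treated with JQ1 for 3 days were compared with those of zebrafish treated with JQ1 for 1 day, to see what differed between the labelled days while the drug was present. Members were chosen by the sample labels alone, and they were the 3 libraries of JQ1 day 3 and the 3 libraries of JQ1 day 1, 6 of the 12 libraries of the series. All animals carried the human *IRF4* gene and the fluorescent marker mCherry under the zebrafish *lck* promoter, which is active in lymphocytes, and had developed lymphoma. JQ1 at 4 μM was dissolved in DMSO and given to fish in individual tanks. The other 6 libraries came from fish given the same amount of DMSO for 3 days or for 1 day, again 3 in each group, and they served as the background of time in the tank. Each library came from 1 animal, and the labels give neither a pairing of animals nor an untreated time point. Fish of the bulk RNA-seq were 10 months old, an age stated for the tumors together and not by group. The paper describes the fish of its JQ1 drug treatment as wild type for *p53* and of mixed sex. The labels do not state the *p53* genotype of the sequenced animals. Day 1 is stated by the labels only. Cells were sorted on mCherry, so what was sequenced was the mCherry-positive gate of a whole fish tumor, and any host cell that passed the gate is in the libraries as well.

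JQ1 occupies the acetyl-lysine pockets of BET proteins such as BRD2 and BRD3, which sit on acetylated histones and help RNA polymerase II leave the promoter with the kinase P-TEFb. In many blood cancers, BET inhibition lowers transcription of *MYC* and of lineage genes and slows division. HEXIM proteins hold P-TEFb inactive in the 7SK particle. *IRF4* is a transcription factor of activated lymphocytes and plasma cells, and *lck* encodes the kinase next to the T-cell receptor.

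Counts on zebrafish genes were 11298503 to 12771912 in the 6 JQ1 libraries. A level is given as CPM, the counts per 1e6 counts on zebrafish genes after TMM scaling, and a gene without counts is limited to 3 counts, which is 0.188 to 0.237 CPM at JQ1 day 3 and 0.261 to 0.295 CPM at JQ1 day 1. These limits cover counting error only, and the spread between animals was far larger. Spearman's correlation between libraries was 0.856 to 0.882 within JQ1 day 3 and 0.908 to 0.930 within JQ1 day 1. In a principal component analysis of the 6 libraries, replicate 2 of JQ1 day 3 stood apart on the first component and replicate 3 of JQ1 day 3 on the second. Human *IRF4* had 3084, 403 and 2159 CPM at JQ1 day 3, against 7718, 2434 and 4243 CPM at JQ1 day 1, and mCherry had 2599, 227 and 1933 CPM at JQ1 day 3, against 5234, 1459 and 3539 CPM at JQ1 day 1. The groups overlapped for both transgenes, and replicate 2 of JQ1 day 3 was the lowest. The summed transgene level was 3468 ± 2584 CPM at JQ1 day 3 and 8209 ± 4544 CPM at JQ1 day 1 (SD, n = 3 each; two-sided exact permutation test, p = 0.3, where 0.1 is the smallest possible). Summed T-cell markers (*lck*, *lat*, *THEMIS*, *bcl11ba*) were at 502 to 1807 CPM in JQ1 day 3 and at 1854 to 2981 CPM in JQ1 day 1, with replicate 2 of JQ1 day 3 again lowest, so the labelled tumor cell type was present in each library. The libraries also held transcripts of other cell types. Macrophage markers summed to 617 to 2699 CPM in JQ1 day 3 and 226 to 991 CPM in JQ1 day 1 (8 gene models, of which 1 copy of *MPEG1* was at 0), skin markers to 301 to 707 CPM in JQ1 day 3 and 596 to 1441 CPM in JQ1 day 1, and germ-cell markers to 148 to 1031 CPM in JQ1 day 3 and 245 to 478 CPM in JQ1 day 1. In bulk RNA, fewer cells of a type and less RNA per cell cannot be told apart.

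**Figure D1:**
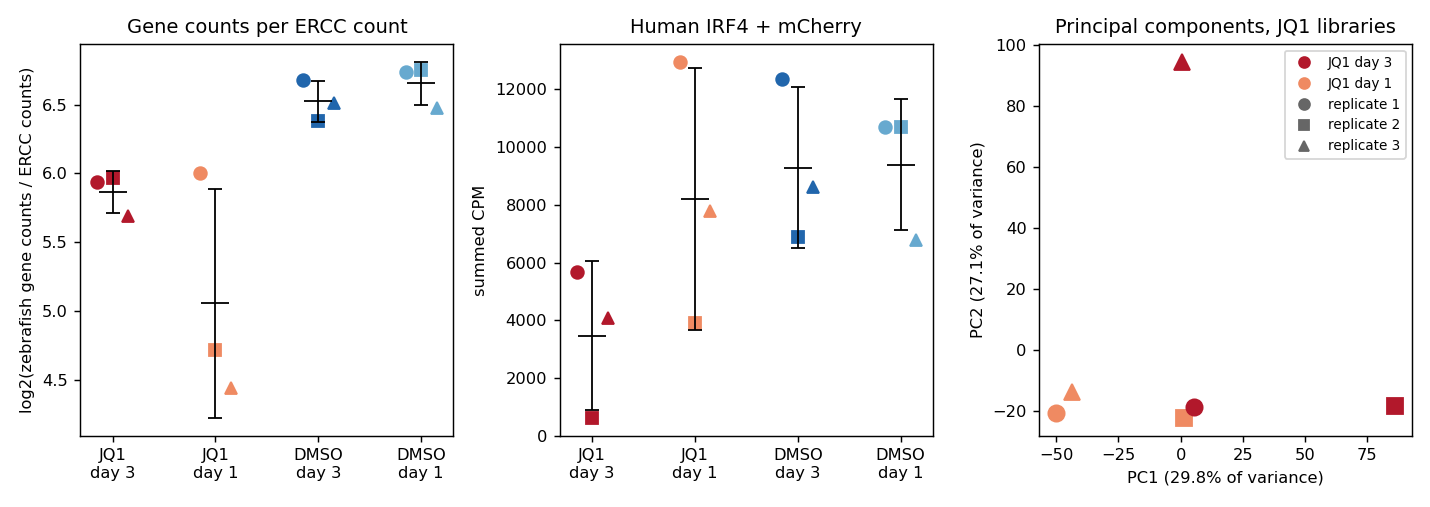
The left panel gives the ratio of gene counts to ERCC counts (log2) in each of the 12 libraries, the middle panel the summed CPM of human IRF4 and mCherry, and the right panel the first 2 principal components of the 6 JQ1 libraries. Bars give the mean and SD of 3 libraries. Replicates 2 and 3 of JQ1 day 1 have the lowest gene counts per ERCC count of all 12 libraries (4.72 and 4.45 on the log2 scale), and replicate 2 of JQ1 day 3 has the lowest transgene level.

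Of 17460 zebrafish genes tested, 3 rose and 2 fell at JQ1 day 3 against JQ1 day 1 at an adjusted p under 0.05 (edgeR's quasi-likelihood test), which is 0.0286% of the genes (0.0172% higher, 0.0115% lower). The 3 that rose are uncharacterized, and the 2 that fell were *alas2* and *TMEFF2*. At an unadjusted p under 0.05 there were 1355 genes (7.76%), 743 of them higher (4.26%) and 612 lower (3.51%) at JQ1 day 3. The 3 libraries of one day lay entirely above or below the 3 of the other in 2555 genes (14.6%), 1243 higher (7.12%) and 1312 lower (7.51%) at JQ1 day 3. In DMSO, 0 of 14106 genes passed between day 3 and day 1 (701 at an unadjusted p under 0.05, 4.97%, of which 280 were higher, 1.98%, and 421 lower, 2.98%, and 118 past the threshold by DESeq2). The difference between the day effects of JQ1 and DMSO passed in 0 of 18116 genes (1259 at an unadjusted p under 0.05, 6.95%, and 39 by DESeq2). So the unadjusted p, the overlap of the libraries and the median of a list describe the groups of genes below, and none of these is a call.

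The scale matters for every direction given here. ERCC RNA was added by cell number, and the log2 ratio of gene counts to ERCC counts was 5.94, 5.96 and 5.69 in JQ1 day 3, against 6.01, 4.72 and 4.45 in JQ1 day 1, a difference of 0.81 (two-sided exact permutation test, p = 0.4). The 2 lowest values were both in JQ1 day 1, and without replicate 3 of that group the difference was 0.50. With ERCC scaling in place of TMM, the median log2 fold change over all genes moved to 1.04, against 0.07 with TMM, and the calls moved to 619 higher and 14 lower (3.63% of the genes), against 3 and 2. DESeq2 called 187 genes (1.07%). Directions are those of TMM, relative to all genes of a library, unless ERCC scaling is named.

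*si:ch211-250k18.7* rose. Its level was 76.4, 112 and 118 CPM at JQ1 day 3, against 7.47, 4.26 and 7.72 CPM at JQ1 day 1, a log2 fold change of 3.98 ± 0.35 (SE; adjusted p = 0.0454). In DMSO it was at 11.6, 7.42 and 81.3 CPM on day 3 and 127, 67.4 and 9.46 CPM on day 1, so DMSO animals of 1 day spread over nearly the range between the JQ1 groups. *si:ch73-27e22.8* also rose, with 13.5, 17.2 and 19.1 CPM in JQ1 day 3 and 0 counts in each JQ1 day 1 library, which is at least 60.9-fold higher against 3 counts per library (adjusted p = 0.0454). Its DMSO levels were 0.0862, 7.20 and 18.2 CPM on day 3 and 14.6, 7.01 and 0 CPM on day 1, near 0 in 1 animal of each day. *si:ch211-213a13.11* rose with 60.8, 44.8 and 64.8 CPM at JQ1 day 3, against 5.11, 8.18 and 7.90 CPM at JQ1 day 1 (log2 fold change 3.01 ± 0.31, adjusted p = 0.0454).

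Of 4 tested genes named after the same clone, all 4 were higher at JQ1 day 3 without overlap (7.12% of all genes), and the first alone passed. The clones of the other called genes did not repeat this. For *si:ch211-250k18.7*, 3 of 3 tested genes of its clone were higher, 1 of them without overlap. For *si:ch73-27e22.8*, 2 of 3 were higher, 1 of them without overlap. *si:ch211-213a13.2* had 58.7, 15.4 and 99.3 CPM at JQ1 day 3, against 1.28, 0.957 and 1.84 CPM at JQ1 day 1 (log2 fold change 5.40 ± 0.73, adjusted p = 0.146). *si:ch211-213a13.5* had 14.1, 11.79 and 30.6 CPM at JQ1 day 3, against 0.983, 1.48 and 0.526 CPM at JQ1 day 1 (adjusted p = 0.158). *si:ch211-213a13.1*, chosen after its values were seen, had a log2 fold change of 1.63 ± 0.32 (adjusted p = 0.36). As for *si:ch211-250k18.7*, DMSO animals of one day differed widely, with *si:ch211-213a13.2* at 1.64, 11.1 and 108 CPM on day 3 and 209.9, 74.5 and 1.39 CPM on day 1. The libraries high in this gene, replicates 1 and 2 of DMSO day 1 and replicate 3 of DMSO day 3, were also the high DMSO libraries of *si:ch211-250k18.7*. Genes named after one clone may be neighbors that share sequence, and only uniquely mapped reads were counted, so the level of a single one is uncertain.

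*TMEFF2*, a transmembrane protein with follistatin-like and EGF-like domains, fell. It had 0.153, 0.690 and 0.0791 CPM at JQ1 day 3, against 34.9, 38.8 and 29.4 CPM at JQ1 day 1 (2, 11 and 1 counts in JQ1 day 3), a log2 fold change of -6.69 ± 0.70 (SE; adjusted p = 0.0454). In DMSO single animals of each day also lay near 0 or far above it, at 0.172, 11.3 and 22.2 CPM on day 3 and 0.174, 0 and 18.6 CPM on day 1. *alas2*, the rate-limiting enzyme of heme synthesis in red cells, fell as well, with 23.0, 14.7 and 15.3 CPM at JQ1 day 3, against 149.9, 149.9 and 122 CPM at JQ1 day 1. Its log2 fold change was -2.99 ± 0.28 (SE; adjusted p = 0.0454). With ERCC scaling *alas2* was still lower, by a log2 fold change of -2.07, and no longer passed. The calls did not survive the loss of a library: 4 of the 5 genes lost theirs without any 1 of the 6 libraries, and *TMEFF2* kept it only without replicate 2 of JQ1 day 3. All 5 lost it when the 12 libraries shared 1 estimate of the spread, where 0 genes passed (1365 at an unadjusted p under 0.05).

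Another 9 genes complete the 12 highest in the ranking and none of them passed. *DACH2*, a transcription cofactor of the retinal determination family, had 35.6, 20.4 and 26.9 CPM at JQ1 day 3, against 4.22, 3.57 and 4.39 CPM at JQ1 day 1 (log2 fold change 2.77 ± 0.35, adjusted p = 0.11). *mmp13b*, a collagenase, had 90.6, 64.8 and 98.8 CPM at JQ1 day 3, against 24.5, 19.7 and 21.5 CPM at JQ1 day 1 (adjusted p = 0.139). The ranking admitted only genes whose JQ1 groups did not overlap, so the separation in both genes came with the choice. *DACH2* in DMSO was at 3.96, 18.2 and 9.44 CPM on day 3 and 59.1, 0.192 and 34.6 CPM on day 1. *mxc* is described with the interferon genes. The uncharacterized *si:ch211-11p18.6*, *si:ch211-266a5.12*, *si:dkey-239b22.1* and *si:ch211-241b2.5* had log2 fold changes of 1.93, 5.02, 2.75 and 1.89 (adjusted p of 0.146 to 0.276).

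On the lower side, 6 of the 10 genes that complete the 12 without passing belong to red cells and are described next. *lgals1l1*, a galectin, had 3.21, 8.34 and 21.4 CPM at JQ1 day 3, against 148, 203 and 263 CPM at JQ1 day 1 (log2 fold change -4.21 ± 0.67, adjusted p = 0.244). Its DMSO level ran the other way, at 223, 46.4 and 50.1 CPM on day 3 and 4.26, 1.25 and 37.8 CPM on day 1, and the difference between the day effects was -7.10 on the log2 scale without passing. *TBX19*, a T-box transcription factor, had 0.612, 1.19 and 0.158 CPM at JQ1 day 3, against 14.5, 9.92 and 10.97 CPM at JQ1 day 1 (adjusted p = 0.276). *cdk21*, a kinase of the Cdk4/6 group, had 15.4, 11.79 and 7.99 CPM at JQ1 day 3, against 51.9, 37.8 and 40.1 CPM at JQ1 day 1 (adjusted p = 0.276), and *TK1* is given with the replication genes.

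Red-cell genes were the group furthest below all genes at JQ1 day 3. Of 24 listed genes, 19 were matched and 17 gene models were tested. Of these, 16 were lower and 1 was higher, 11 of the lower ones lay at an unadjusted p under 0.05 (3.51% of all genes), and 11 did not overlap (7.51% of all genes). *alas2* was the 1 member past the threshold, and by DESeq2 8 members passed as lower (1.07% of all genes, higher or lower). The median log2 fold change was -1.67, against 0.07 over all genes, and -0.74 against 1.04 with ERCC scaling, where 12 of the 17 were lower. Without any 1 JQ1 library the median was -1.89 to -1.51, with 10 to 12 members at that p.

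*SLC4A1*, the anion exchanger of the red-cell membrane, had 34.2, 32.5 and 28.3 CPM at JQ1 day 3, against 193, 217 and 119.8 CPM at JQ1 day 1 (log2 fold change -2.47 ± 0.29, adjusted p = 0.0867). *SPTB*, the membrane skeleton protein beta-spectrin, had 29.7, 19.1 and 23.1 CPM at JQ1 day 3, against 68.3, 79.1 and 61.0 CPM at JQ1 day 1. *cahz*, the red-cell carbonic anhydrase, had 34.4, 26.3 and 16.7 CPM at JQ1 day 3, against 113, 96.0 and 75.2 CPM at JQ1 day 1. In each of these genes all 3 JQ1 day 3 libraries were below all 3 of JQ1 day 1. They were named for a low p or for the lack of overlap, so the choice favored this.

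The alpha-globin gene *hbaa1* had 233, 133 and 281 CPM at JQ1 day 3, against 1767, 1634 and 849.7 CPM at JQ1 day 1 (log2 fold change -2.71 ± 0.41, adjusted p = 0.209). *hbaa2* had 13.6, 2.01 and 32.4 CPM at JQ1 day 3, against 311, 295 and 196 CPM at JQ1 day 1. *si:ch211-5k11.8*, for which RefSeq gives the synonym hbaa1.2, is not in the list, so the list's counts and the summed markers leave it out. It was the most abundant at 703, 358 and 436 CPM at JQ1 day 3, against 3989, 3422 and 1847 CPM at JQ1 day 1. The gene models named *HBE1* with the identifiers ENSDARG00000089087 and ENSDARG00000097238 had log2 fold changes of -2.66 ± 0.38 and -2.71 ± 0.43 (adjusted p = 0.158 and 0.244). Globin copies are nearly identical and share reads, so the level of a single copy is uncertain. All of the copies named here were lower without overlap, which the choice of genes again favored. Chosen after their values were seen, *epb41b*, *hemgn* and the erythroid transcription factor *klf1* had log2 fold changes of -1.76, -1.42 and -1.51.

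The same genes varied strongly in DMSO. Without JQ1, *alas2* was at 6.21, 38.2 and 9.99 CPM on day 3 and 16.3, 22.9 and 207 CPM on day 1, and *SLC4A1* was at 1.98, 61.4 and 14.6 CPM on day 3 and 21.0, 44.6 and 407 CPM on day 1. Replicate 3 of DMSO day 1 was the highest DMSO library in 16 of the 17 genes. All 17 members had a negative DMSO fold change, with a median of -2.03, which was -0.05 without that library. The difference between the day effects had a median of 0.12 with 0 members at an unadjusted p under 0.05, and -1.53 with 3 members without that library. So the lower level was shared by the 3 JQ1 day 3 animals for most members, and no difference from the DMSO libraries was shown. Summed erythrocyte markers (3 of 5 matched) were at 150 to 329 CPM in JQ1 day 3 and 1168 to 2228 CPM in JQ1 day 1.

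**Figure D2:**
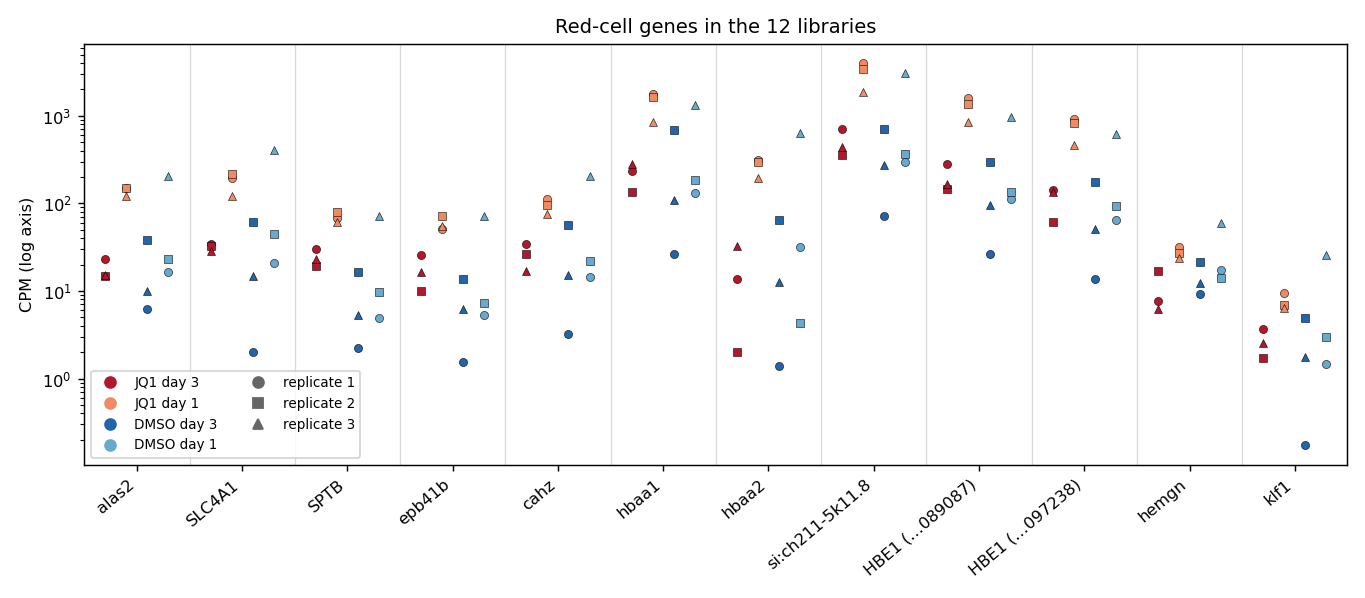
Level of 12 red-cell genes in each library (CPM on a log axis), with colors for the 4 groups and symbols for the replicate number. The labels do not state that this number pairs animals. In all 12 genes the 3 JQ1 day 3 libraries lie below the 3 JQ1 day 1 libraries, while replicate 3 of DMSO day 1 lies above the other DMSO libraries. The genes were picked for a low p or for the lack of overlap, or after their values were seen, so the choice favored this separation. Of the 17 list members tested, 11 did not overlap.

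Cell-division genes were lower at JQ1 day 3 while the same genes were higher on day 3 in DMSO. Of 44 mitosis genes tested, 42 were lower at JQ1 day 3, 21 of them at an unadjusted p under 0.05 (3.51% of all genes) and 16 without overlap (7.51%), and none passed the threshold. The median log2 fold change was -0.79 in JQ1, against 0.72 in DMSO, where all 44 were higher and 19 lay at an unadjusted p under 0.05 (1.98% of all genes). The difference between the day effects had a median of -1.53, with 35 of 44 members lower at an unadjusted p under 0.05 (3.33% of all genes) and none past the threshold. By DESeq2, 3 of the 44 passed for that difference (0.215% of all genes).

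*CENPF*, a kinetochore protein, had 56.5, 47.0 and 37.5 CPM at JQ1 day 3, against 138, 74.97 and 147 CPM at JQ1 day 1 (log2 fold change -1.35 ± 0.32, adjusted p = 0.518). In DMSO it had 121, 208 and 189 CPM on day 3 and 108, 126 and 87.5 CPM on day 1. *CCNB1*, cyclin B1, the partner of Cdk1 at entry into mitosis, had 46.3, 31.3 and 22.3 CPM at JQ1 day 3, against 130.2, 60.6 and 80.8 CPM at JQ1 day 1. It had 96.3, 153 and 94.2 CPM in DMSO day 3 and 37.0, 76.0 and 49.9 CPM in DMSO day 1, and its difference between the day effects was -2.52 (unadjusted p = 0.000603). The proliferation marker *mki67* had 234, 248 and 217 CPM at JQ1 day 3, against 675, 274 and 827 CPM at JQ1 day 1. Replicate 2 of JQ1 day 1 was the lowest of its group in each of these genes. Across the list, replicate 3 of JQ1 day 3 was the lowest JQ1 library in 40 of the 44 genes and replicate 1 of JQ1 day 1 the highest in 31.

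*TPX2*, a spindle assembly factor, *ECT2*, an exchange factor for cytokinesis, and *CDC20*, an activator of the anaphase-promoting complex, had log2 fold changes of -1.18 ± 0.32, -1.45 ± 0.40 and -1.62 ± 0.47. Among genes chosen after their values were seen, *CDK1* was at -1.20, *TOP2A* at -1.25 and *AURKB* at -0.93. A gene model named *STMN1* (ENSDARG00000004169), a microtubule-destabilizing protein that was likewise chosen after its values were seen, had 34.9, 25.5 and 32.3 CPM at JQ1 day 3, against 189, 59.1 and 106 CPM at JQ1 day 1, while the other model of that name was at 0.63.

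DNA replication genes followed with smaller differences. Of 49 tested, 39 were lower, 7 of them at an unadjusted p under 0.05 (3.51% of all genes) and 7 without overlap (7.51%). The median was -0.32 in JQ1 and 0.56 in DMSO (49 of 50 higher). The difference between the day effects lay below 0 at an unadjusted p under 0.05 in 14 of 50 (3.33% of all genes). That count was 8 without replicate 3 of DMSO day 1, 24 without replicate 1 of that group, and between these without any other library. *TK1*, thymidine kinase, had 20.3, 20.001 and 20.5 CPM at JQ1 day 3, against 128, 47.7 and 89.5 CPM at JQ1 day 1 (log2 fold change -2.12 ± 0.37, adjusted p = 0.276). *DUT*, which removes dUTP, had 24.8, 27.3 and 16.6 CPM at JQ1 day 3, against 89.0, 43.1 and 61.1 CPM at JQ1 day 1. The ribonucleotide reductase subunit *RRM1* had 70.4, 81.6 and 88.0 CPM at JQ1 day 3, against 185, 105 and 151 CPM at JQ1 day 1. *RRM2*, whose groups overlapped, had 54.6, 18.997 and 48.2 CPM at JQ1 day 3, against 329.5, 36.3 and 137 CPM at JQ1 day 1. *PCNA*, the sliding clamp of the replication fork, had 235, 239 and 259.9 CPM at JQ1 day 3, against 681, 255 and 485 CPM at JQ1 day 1. Among 23 G1 cyclins, kinases and their inhibitors, the median was -0.18 and 1 was lower at an unadjusted p under 0.05 (3.51% of all genes). This was *CDKN1B*, the Cdk inhibitor p27, with 87.8, 86.5 and 69.5 CPM at JQ1 day 3, against 196, 113 and 112 CPM at JQ1 day 1.

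The number of mitosis genes at an unadjusted p under 0.05 varied with the library left out, and their direction with the scale. Without replicate 1 of JQ1 day 1 it was 6 of the 44, without replicate 3 of JQ1 day 1 it was 8, and without any other library 12 to 23. The JQ1 median stayed between -1.05 and -0.63 without any 1 library. In DMSO it stayed between 0.48 and 0.96, with 2 to 31 members higher at that p. For the difference between the day effects the median stayed between -1.79 and -1.18, with 20 to 38 members. The JQ1 median of the replication genes was -0.11 without replicate 1 of JQ1 day 1 (3 members lower at that p) and -0.53 without replicate 2 of JQ1 day 1 (12 members), and between these values without any other library. With ERCC scaling the mitosis median was 0.08 (24 higher, 20 lower, against 1.04 over all genes), the replication median 0.57, and the median difference between the day effects of the mitosis genes -0.47, with 0 members at that p, against 1.198 over all genes.

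**Figure D3:**
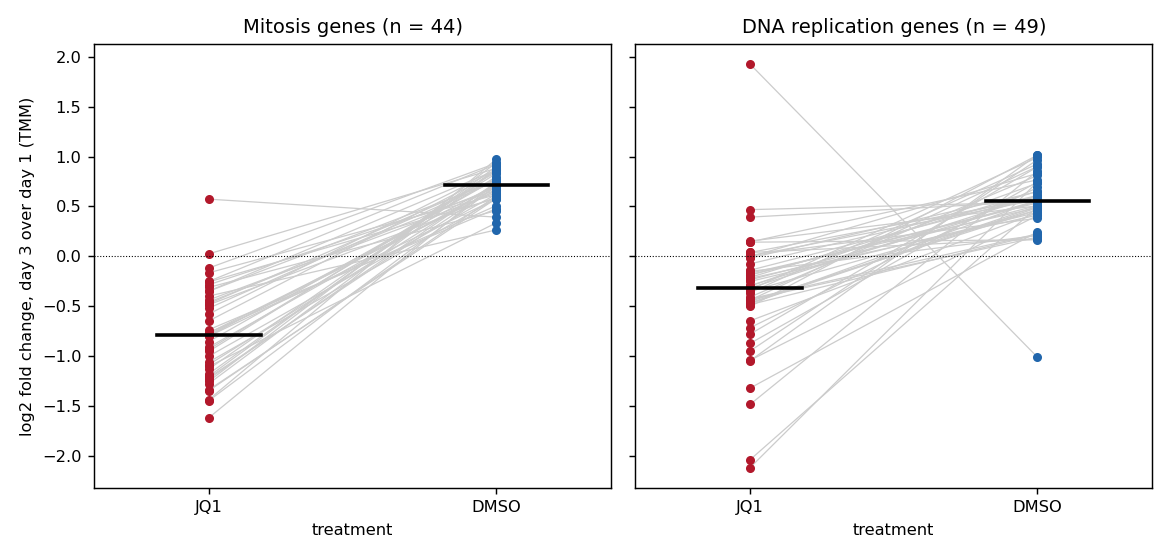
Log2 fold change of day 3 over day 1 (TMM scaling) for each mitosis gene (left) and DNA replication gene (right) in JQ1 and in DMSO, joined by lines, with medians as black bars. The mitosis medians are -0.79 in JQ1 and 0.72 in DMSO, and those of DNA replication are -0.32 and 0.56.

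Interferon-response genes had the highest median of the lists with at least 10 genes. Of 36 gene models matched, 31 were tested, 29 of them higher at JQ1 day 3, 17 at an unadjusted p under 0.05 (4.26% of all genes) and 10 without overlap (7.12%), with a median log2 fold change of 1.79 (2.603 with ERCC scaling). None passed, and 9 did by DESeq2 (1.07% of all genes, higher or lower). In DMSO the median was 0.08 with 0 members at an unadjusted p under 0.05, and it was 0.70 without replicate 3 of DMSO day 1, with 23 of 26 higher, and -0.19 without replicate 2 of DMSO day 3. The difference between the day effects was higher at that p in 9 of 32 (3.62% of all genes), with a median of 1.47. Without replicate 3 of JQ1 day 3 it was higher in 2 and lower in 2, with a median of 0.51. Without replicate 3 of DMSO day 1 it was higher in 2 as well, and without any other library in 4 to 17.

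*mxc*, an Mx GTPase with antiviral activity, had 105, 53.7 and 109 CPM at JQ1 day 3, against 24.4, 18.3 and 13.8 CPM at JQ1 day 1 (log2 fold change 2.25 ± 0.36, adjusted p = 0.245). *gbp1*, a guanylate-binding protein, had 36.1, 42.2 and 60.8 CPM at JQ1 day 3, against 12.7, 17.6 and 18.7 CPM at JQ1 day 1. Across the list, replicate 3 of JQ1 day 3 was the highest JQ1 library in 26 of the 31 genes. *mxb* had 5.66, 3.76 and 107 CPM at JQ1 day 3, against 0.884, 0.870 and 0.614 CPM at JQ1 day 1. *helz2a* had 229.9, 71.7 and 896 CPM at JQ1 day 3, against 31.3, 61.8 and 39.0 CPM at JQ1 day 1. *CMPK2*, a mitochondrial nucleotide kinase, had 18.5, 3.57 and 123 CPM at JQ1 day 3, against 2.06, 2.61 and 2.90 CPM at JQ1 day 1.

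*mxe* had 13.6, 2.63 and 22.9 CPM at JQ1 day 3, against 0.197, 0.0870 and 1.05 CPM at JQ1 day 1. Chosen after their values were seen were *RSAD2* and *isg15*. *RSAD2*, the antiviral enzyme viperin, had 47.8, 4.01 and 322 CPM at JQ1 day 3, against 2.95, 7.13 and 3.77 CPM at JQ1 day 1, and its groups overlapped at replicate 2 of JQ1 day 3. *isg15*, the ubiquitin-like interferon product, had 68.3, 25.02 and 384 CPM at JQ1 day 3, against 50.6, 19.6 and 29.2 CPM at JQ1 day 1. *stat2*, a transcription factor of the type I interferon response, had 139, 127 and 413 CPM at JQ1 day 3, against 67.1, 68.2 and 91.2 CPM at JQ1 day 1. Without replicate 3 of JQ1 day 3 the list's median was 0.78, with 13 members at an unadjusted p under 0.05.

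Macrophage genes were higher at JQ1 day 3, and replicate 2 of that group was the highest JQ1 library in 20 of 35. Of 35 tested, 32 were higher, 11 at an unadjusted p under 0.05 (4.26% of all genes) and 5 without overlap (7.12%), with a median of 1.15 (2.41 with ERCC scaling). None passed, and 3 did by DESeq2 (1.07% of all genes, higher or lower). *MPEG1* (ENSDARG00000043093), a pore-forming protein of macrophages, had 56.1, 184 and 85.5 CPM at JQ1 day 3, against 26.9, 13.4 and 31.3 CPM at JQ1 day 1. The granulins *grna.1*, with 517, 4303 and 345 CPM at JQ1 day 3, against 209, 382 and 128 CPM at JQ1 day 1, and *grna.2*, with 36.1, 41.9 and 29.9 CPM at JQ1 day 3, against 2.06, 11.05 and 13.2 CPM at JQ1 day 1, encode lysosomal growth-factor precursors. *havcr1*, a phosphatidylserine receptor, had 32.3, 66.9 and 87.7 CPM at JQ1 day 3, against 4.42, 21.8 and 15.97 CPM at JQ1 day 1. *LGMN*, the lysosomal protease legumain, had 1216, 2728 and 1135 CPM at JQ1 day 3, against 192, 849 and 482 CPM at JQ1 day 1.

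Chosen after their values were seen, the scavenger receptor *marco* had 204, 1447 and 1076 CPM at JQ1 day 3, against 58.6, 431 and 387 CPM at JQ1 day 1. *csf1ra*, the receptor for macrophage growth factor, had 277, 913 and 650.1 CPM at JQ1 day 3, against 126, 461 and 359 CPM at JQ1 day 1. Their groups overlapped, and replicate 1 was the lowest library in both JQ1 groups. Without replicate 2 of JQ1 day 3 the list's median was 0.62 with 3 members at an unadjusted p under 0.05, and 4 members were left without replicate 1 of JQ1 day 1 and 5 without its replicate 3. In DMSO the median was -0.73, and 0.59 without replicate 3 of DMSO day 1, the library that also held the highest red-cell level. The difference between the day effects was higher at an unadjusted p under 0.05 in 5 of 37 (3.62% of all genes, and 0 to 16 members without any 1 library). Neutrophil genes were lower in the main, with 13 of 19 lower and a median of -0.26 (17 of 19 higher with ERCC scaling). Without any 1 JQ1 library that median was -0.60 to -0.01, and the DMSO median was -0.28. *scpp8* had 7.34, 5.83 and 3.72 CPM at JQ1 day 3, against 25.2, 24.4 and 17.7 CPM at JQ1 day 1 (adjusted p = 0.329) and *npsn* had 296, 119 and 178 CPM at JQ1 day 3, against 261, 574 and 354 CPM at JQ1 day 1.

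Lysosome and autophagy genes, which macrophages express at high levels, had a median of 0.42 (1.404 with ERCC scaling). Of 61 tested, 45 were higher, 15 at an unadjusted p under 0.05 (4.26% of all genes). The libraries did not overlap in 15 that were higher (7.12% of all genes). *NEU1*, a lysosomal sialidase, had 28.4, 38.9 and 20.6 CPM at JQ1 day 3, against 9.83, 12.003 and 14.2 CPM at JQ1 day 1. *CTSB*, the protease cathepsin B, had 1249.7, 4249.7 and 1111 CPM at JQ1 day 3, against 449, 1057 and 657 CPM at JQ1 day 1. *ATP6V1A*, a subunit of the proton pump, had 17.4, 83.7 and 25.2 CPM at JQ1 day 3, against 7.57, 8.44 and 11.4 CPM at JQ1 day 1. *TFEB*, the transcription factor of lysosome genes, had 70.33, 96.0 and 48.6 CPM at JQ1 day 3, against 24.6, 44.97 and 24.9 CPM at JQ1 day 1. *ulk1a*, a kinase that starts autophagy, was lower with 65.7, 54.0 and 84.0 CPM at JQ1 day 3, against 201, 103 and 169 CPM at JQ1 day 1. The summed macrophage markers given above were highest in replicates 2 and 3 of JQ1 day 3, and their part in the lysosome values was not tested. Without replicate 1 or replicate 3 of JQ1 day 1 only 6 of the lysosome genes were higher at that p.

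**Figure D4:**
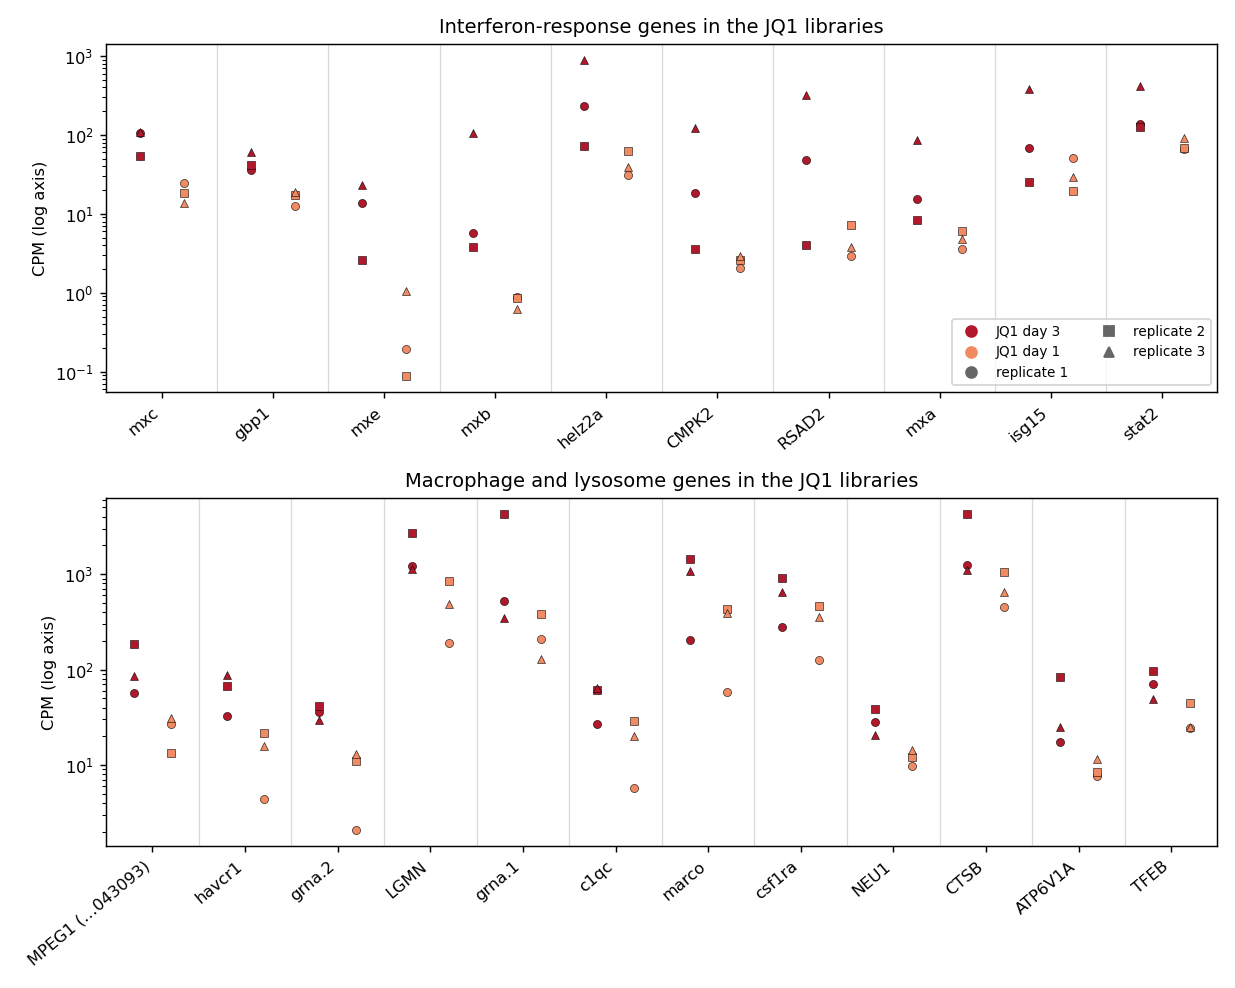
Level of interferon-response genes (top) and of macrophage and lysosome genes (bottom) in the 6 JQ1 libraries (CPM on a log axis). Colors give the day, symbols the replicate. Replicate 3 of JQ1 day 3 is the highest library for each interferon gene drawn, and replicate 2 of JQ1 day 3 is the highest for MPEG1, LGMN, grna.1, CTSB and ATP6V1A.

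Chemokines and their receptors lay on both sides. Of 60 tested, 40 were higher, 11 at an unadjusted p under 0.05 (4.26% of all genes), and 20 were lower, 3 at that p (3.51%), with a median of 0.80 (1.69 with ERCC scaling). The median was 0.41 without replicate 3 of JQ1 day 3 (7 higher at that p) and 1.299 without replicate 1 of JQ1 day 3 (21 higher), and 8 to 13 were higher without any other library. The DMSO median was -1.06, and -0.01 without replicate 3 of DMSO day 1. *ccl34b.8* had 67.7, 107 and 630.0 CPM at JQ1 day 3, against 28.7, 11.6 and 29.0 CPM at JQ1 day 1. *cxcl11.3*, of the interferon-induced CXCL9-11 group, had 26.7, 19.3 and 146 CPM at JQ1 day 3, against 5.21, 11.3 and 7.81 CPM at JQ1 day 1. Both were highest in replicate 3, as the interferon genes were. *CCR6* had 39.9, 12.1 and 69.2 CPM at JQ1 day 3, against 371, 156 and 202 CPM at JQ1 day 1 (log2 fold change -2.58 ± 0.63). *CCR9* (ENSDARG00000099738), which guides thymic and gut T cells, had 67.3, 16.2 and 64.5 CPM at JQ1 day 3, against 265, 143 and 194 CPM at JQ1 day 1. The other model named *CCR9* (ENSDARG00000055186) was the most abundant member, and its groups overlapped, with 424, 841 and 824 CPM at JQ1 day 3, against 3811, 1001 and 766 CPM at JQ1 day 1.

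The cytokine genes *il22* and *il17a/f1* were chosen after their values were seen. *il22*, whose product acts on epithelia, had 10.2, 62.0 and 12.3 CPM at JQ1 day 3, against 0, 0.261 and 0.526 CPM at JQ1 day 1 (log2 fold change 6.67 ± 1.13, adjusted p = 0.276). *il17a/f1* had 2.68, 12.6 and 3.80 CPM in JQ1 day 3 and 0 counts in each JQ1 day 1 library, at least 23.3-fold higher against 3 counts per library (adjusted p = 0.307). Replicate 2 was highest for both, and neither passed. *jac2*, of the jacalin-like lectin family and the only tested member of 9 listed, had 166, 51.5 and 1947 CPM at JQ1 day 3, against 2.85, 7.22 and 5.79 CPM at JQ1 day 1 (log2 fold change 7.09 ± 1.45, adjusted p = 0.426). It passed by DESeq2, and without 1 library its log2 fold change was 4.34 to 7.66. *tppp*, a tubulin-binding protein chosen after its values were seen, had 712, 1602 and 301 CPM at JQ1 day 3, against 119, 176 and 62.9 CPM at JQ1 day 1.

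Immediate early genes, which respond within minutes to receptor signals and to tissue handling, were lower at JQ1 day 3. Of 45 tested, 41 were lower, 11 at an unadjusted p under 0.05 (3.51% of all genes) and 11 without overlap (7.51%), with a median of -0.56 (0.32 with ERCC scaling, where 32 were higher). None passed, and 4 did by DESeq2 (1.07% of all genes, higher or lower). Without replicate 1 of JQ1 day 1 the members at that p were 7. *FOSB*, an AP-1 subunit, had 40.4, 11.4 and 14.6 CPM at JQ1 day 3, against 189.9, 152 and 123 CPM at JQ1 day 1 (log2 fold change -2.81 ± 0.50, adjusted p = 0.296). *NR4A1*, an orphan nuclear receptor induced by T-cell receptor signals, had 61.5, 12.1 and 25.2 CPM at JQ1 day 3, against 685, 284 and 191 CPM at JQ1 day 1, and its relative *NR4A2* had 30.3, 3.70 and 3.402 CPM at JQ1 day 3, against 334, 145 and 68.8 CPM at JQ1 day 1. *EGR3*, a zinc-finger factor of the same response, had 17.2, 8.59 and 16.9 CPM at JQ1 day 3, against 79.5, 84.3 and 19.5 CPM at JQ1 day 1. The JQ1 groups did not overlap in these 4 genes. *JUNB* had 167, 144 and 186 CPM at JQ1 day 3, against 305, 309.6 and 290.1 CPM at JQ1 day 1. *KLF11* had 123, 54.7 and 81.0 CPM at JQ1 day 3, against 223, 173 and 221 CPM at JQ1 day 1. With ERCC scaling *JUNB* was at 0.06 and *NR4A1* at -2.93. In DMSO the genes were lower on day 3 too, with a median of -1.49 (-0.52 without replicate 2 of DMSO day 1, the library with the highest *NR4A1* level, 1179 CPM). The difference between the day effects had a median of 0.43, with 1 of 45 members higher at an unadjusted p under 0.05 (3.62% of all genes). Without replicate 2 of DMSO day 1 that median was -0.26, with 5 members lower and 1 higher at that p. Without replicate 1 of DMSO day 1 it was 0.90, with 12 members higher and 1 lower.

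The 4 T-cell markers were lower, most of all in replicate 2 of JQ1 day 3, while the larger T-cell lists given below lay on both sides. *lck* had 461, 91.2 and 430.2 CPM at JQ1 day 3, against 1212, 473 and 626 CPM at JQ1 day 1. *lat*, the adaptor phosphorylated below the T-cell receptor, had 182, 61.5 and 159 CPM at JQ1 day 3, against 260.4, 260.1 and 212 CPM at JQ1 day 1. *THEMIS*, needed for selection in the thymus, had 249, 68.2 and 120.2 CPM at JQ1 day 3, against 253, 251 and 258 CPM at JQ1 day 1. *bcl11ba*, a factor of T-lineage commitment, had 914, 281 and 563 CPM at JQ1 day 3, against 1256, 870.1 and 1013 CPM at JQ1 day 1, and it was the only one of the 4 markers whose groups overlapped. The 4 markers had a median log2 fold change of -0.85, which was -0.51 without replicate 2 of JQ1 day 3 and 0.00 with ERCC scaling. None lay at an unadjusted p under 0.05, and 3 did without replicate 1 of JQ1 day 3.

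Of 28 T-cell receptor signaling genes, 15 were lower, 5 at an unadjusted p under 0.05 (3.51% of all genes), and 13 were higher, 2 at that p (4.26%). The libraries did not overlap in 9 lower and 1 higher member (7.51% and 7.12% of all genes). *NFATC2*, a calcium-regulated transcription factor, had 235, 66.0 and 146 CPM at JQ1 day 3, against 327, 324 and 308 CPM at JQ1 day 1. *grap2b* had 729, 332 and 639 CPM at JQ1 day 3, against 1433, 819 and 1196 CPM at JQ1 day 1. The costimulatory receptor *cd28* was higher with 13.07, 29.6 and 29.9 CPM at JQ1 day 3, against 7.27, 10.002 and 6.93 CPM at JQ1 day 1. *cd4-1* had 5.89, 10.97 and 12.9 CPM at JQ1 day 3, against 6.09, 3.13 and 3.16 CPM at JQ1 day 1. The list's median was -0.27 (0.61 with ERCC scaling), and 0.08 without replicate 2 of JQ1 day 1. The 5 lower members at that p numbered 0 without replicate 1 of JQ1 day 1, 6 without replicate 1 of JQ1 day 3, and 1 or 2 without any other library.

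Among 28 T-lineage transcription factors, 17 were lower and 11 higher, with a median of -0.27 (0.60 with ERCC scaling). The libraries did not overlap in 6 lower and 3 higher members (7.51% and 7.12% of all genes). At an unadjusted p under 0.05, 3 were higher (4.26% of all genes) and 4 lower (3.51%), and without replicate 1 of JQ1 day 3, 1 and 8. Without any other library, 1 to 3 were higher and 1 to 3 lower at that p. In DMSO, 17 of 25 were lower on day 3, 5 at that p (2.98% of all genes), and 8 were higher, 2 at that p (1.98%). The DMSO median was -0.40, and the median difference between the day effects was -0.05. *TCF7*, a factor of early and memory T cells, had 499, 404 and 357 CPM at JQ1 day 3, against 919, 877 and 507 CPM at JQ1 day 1. *MYB*, a factor of progenitors and T cells, had 808, 208 and 611 CPM at JQ1 day 3, against 1683, 891 and 1357 CPM at JQ1 day 1. *EOMES* had 5.43, 3.01 and 4.75 CPM at JQ1 day 3, against 6.19, 11.83 and 13.2 CPM at JQ1 day 1. *foxp3a*, a homolog of the regulatory T-cell factor FOXP3, was higher with 70.7, 245 and 212 CPM at JQ1 day 3, against 69.3, 45.1 and 36.4 CPM at JQ1 day 1 (log2 fold change 1.81 ± 0.48, adjusted p = 0.582). *TCF12*, an E protein, had 83.2, 54.0 and 40.4 CPM at JQ1 day 3, against 30.0, 40.01 and 24.9 CPM at JQ1 day 1. The recombinase genes *RAG1* and *RAG2* spread widely, with *RAG1* at 90.8, 37.9 and 134 CPM at JQ1 day 3, against 267, 23.5 and 162 CPM at JQ1 day 1.

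The study singled out 10 genes for tumor expression and active chromatin, in other samples of its tumors. It also reported most of them as lower after JQ1 than after DMSO on day 3, a comparison not made here. They match 12 gene models, including both named *MYC*. Of these, 11 were lower at JQ1 day 3, 1 at an unadjusted p under 0.05 (3.51% of all genes) and 4 without overlap (7.51%), with a median of -0.89 (-0.07 with ERCC scaling, 8 lower and 4 higher). Without replicate 1 of JQ1 day 3, 6 lay at that p, and without replicate 1 of JQ1 day 1, 0. *sla2b*, an adaptor that dampens receptor signals, had 239.6, 82.2 and 152 CPM at JQ1 day 3, against 639.9, 320.4 and 242 CPM at JQ1 day 1 (log2 fold change -1.34 ± 0.49, adjusted p = 0.623). *GATA3*, a master regulator of T-cell development, had 1174, 226 and 755 CPM at JQ1 day 3, against 1424, 1341 and 1599.6 CPM at JQ1 day 1. *LRRN1* had 31.0, 2.07 and 21.8 CPM at JQ1 day 3, against 62.9, 69.1 and 51.4 CPM at JQ1 day 1. *MIDN* had 759.5, 314 and 611 CPM at JQ1 day 3, against 1339, 791 and 863 CPM at JQ1 day 1. Replicate 2 of JQ1 day 3 was the lowest JQ1 library for 10 of the 12 models. *h2ax*, *ncaldb* and *psip1a* had log2 fold changes of -0.77 ± 0.56, -0.99 ± 0.48 and -1.34 ± 0.68 with overlapping groups, and *patl1* was at -0.27 ± 0.24. The models of *SEC22B* were at -0.96 ± 0.58 (ENSDARG00000030108) and 0.26 ± 0.33 (ENSDARG00000100435).

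BET and P-TEFb genes differed by small amounts. Of 16 tested, 14 were lower, 1 at an unadjusted p under 0.05 (3.51% of all genes) and 5 without overlap (7.51%), with a median of -0.35 (0.49 with ERCC scaling, where all 16 were higher). The gene model named *HEXIM2* (ENSDARG00000036482) was taken as *hexim1* when the genes to name were set. It had 169.9, 151 and 132 CPM at JQ1 day 3, against 336, 215 and 186 CPM at JQ1 day 1 (log2 fold change -0.70 ± 0.28, unadjusted p = 0.0399). Every JQ1 library was above its DMSO level of 67.2, 66.6 and 53.2 CPM on day 3 and 70.22, 91.3 and 46.5 CPM on day 1. *BRD2* had 619.8, 513 and 581 CPM at JQ1 day 3, against 1158, 732 and 768 CPM at JQ1 day 1. *brd3a* had 80.5, 49.7 and 73.2 CPM at JQ1 day 3, against 109, 87.4 and 95.7 CPM at JQ1 day 1. *MEPCE*, which caps 7SK RNA, and *AFF4*, a scaffold of the super elongation complex, had log2 fold changes of -0.47 ± 0.22 and -0.48 ± 0.21.

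None of the myc genes passed, and the libraries of both days overlapped for both *MYC* models, *mych*, *MYCN*, *mycla* and *MYCL*. *MYC* (ENSDARG00000007241) had 612, 72.1 and 470.3 CPM at JQ1 day 3, against 659.9, 332 and 464 CPM at JQ1 day 1 (log2 fold change -0.33 ± 0.66), and without 1 library its value was -0.83 to 0.16. *MYC* (ENSDARG00000045695) had 52.7, 59.8 and 70.33 CPM at JQ1 day 3, against 69.0, 94.0 and 61.2 CPM at JQ1 day 1 (log2 fold change -0.29 ± 0.26). The first model was lowest in replicate 2 of JQ1 day 3 and the second in replicate 1 of that group. *mych* had 89.4, 101 and 93.7 CPM at JQ1 day 3, against 186, 149 and 100.02 CPM at JQ1 day 1. *MYCN* had 16.4, 3.70 and 2.69 CPM at JQ1 day 3, against 31.0, 8.78 and 16.4 CPM at JQ1 day 1. *mycla* had 56.9, 24.4 and 30.8 CPM at JQ1 day 3, against 53.7, 46.5 and 58.0 CPM at JQ1 day 1. *MYCL* was at 0.01 ± 0.46. Of 15 genes of the wider family, 12 were lower and none lay at an unadjusted p under 0.05, or 4 without replicate 1 of JQ1 day 3 (median -0.47, and 0.45 with ERCC scaling). *MXD3*, a Myc antagonist of dividing cells, was at -0.90 ± 0.40, and the *MNT* models were at -0.53 ± 0.24 (ENSDARG00000101859) and -0.50 ± 0.29 (ENSDARG00000073988). *MAX*, the shared partner, had 175, 147 and 153 CPM at JQ1 day 3, against 212, 177 and 191 CPM at JQ1 day 1.

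Ribosomal protein genes and most translation factors were lower, while other genes of protein synthesis lay near all genes. Replicate 2 of JQ1 day 3 was the lowest JQ1 library in all 76 ribosomal protein genes. All 76 cytosolic ribosomal protein genes tested were lower at JQ1 day 3, 13 at an unadjusted p under 0.05 (3.51% of all genes) and 39 without overlap (7.51%). Their median was -0.62 and none passed the threshold. In DMSO, 70 of the 76 were higher on day 3, 0 of them at that p, with a median of 0.13. The difference between the day effects had a median of -0.83 (0.23 with ERCC scaling). At that p, 8 of the 76 were lower for this difference (3.33% of all genes). *RPL5* had 1401, 823 and 1076 CPM at JQ1 day 3, against 2632, 1645 and 2047 CPM at JQ1 day 1. *RPL17* had 1720.0, 964 and 1228 CPM at JQ1 day 3, against 2428, 2095 and 2242 CPM at JQ1 day 1. *RPLP0*, the most abundant, had 6059, 3158 and 5197 CPM at JQ1 day 3, against 7630.4, 5367 and 6479 CPM at JQ1 day 1. With ERCC scaling 74 of the 76 were higher in JQ1, at a median of 0.26, below the 1.04 of all genes. The JQ1 count at an unadjusted p under 0.05 was 49 without replicate 1 of JQ1 day 3 and 0 without its replicate 3, or without replicate 1 or 3 of JQ1 day 1. Ribosomal protein genes share sequence with pseudogenes and duplicates, and only uniquely mapped reads were counted.

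Of 82 translation factors, 66 were lower, 12 at an unadjusted p under 0.05 (3.51% of all genes) and 21 without overlap (7.51%). Their median was -0.30 (0.60 with ERCC scaling). The 12 became 2 without replicate 1 of JQ1 day 1, 3 without replicate 3 of either JQ1 group, 7 without replicate 2 of JQ1 day 3 and 21 without replicate 1 of JQ1 day 3. *EIF2S1*, the subunit of initiation factor eIF2 that stress kinases phosphorylate, had 177, 105 and 147 CPM at JQ1 day 3, against 286, 257 and 305 CPM at JQ1 day 1 (log2 fold change -0.98 ± 0.26). *eif5a* had 1077, 886 and 1274 CPM at JQ1 day 3, against 2221, 1629.7 and 1973 CPM at JQ1 day 1. The elongation factor *eef1a1l1* had 19946, 11594 and 15315 CPM at JQ1 day 3, against 28629, 21642 and 23308 CPM at JQ1 day 1. Ribosome biogenesis genes, which make rather than form the ribosome, had a median of 0.07 with 42 of 67 higher (-0.13 to 0.20 without any 1 library). Of 17 aminoacyl-tRNA synthetases, 11 were lower, 1 at an unadjusted p under 0.05 (3.51% of all genes). The other 6 were higher, 1 at that p (4.26% of all genes). Their median was -0.06 (-0.39 to 0.08 without any 1 library).

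Genes of the unfolded protein and amino acid responses and chaperones lay on both sides. Of 36 genes of these responses, 18 were higher and 18 lower, 9 and 2 of them at an unadjusted p under 0.05 (4.26% and 3.51% of all genes). The libraries did not overlap in 6 higher and 5 lower members (7.12% and 7.51% of all genes), and the median was 0.01. *calr3a*, a calreticulin, had 149, 224 and 390.0 CPM at JQ1 day 3, against 60.1, 71.8 and 46.9 CPM at JQ1 day 1 (adjusted p = 0.307). *CALR* had 35.8, 45.8 and 71.7 CPM at JQ1 day 3, against 20.04, 15.0 and 18.1 CPM at JQ1 day 1. *CANX*, the membrane-bound partner calnexin, had 254, 485 and 481 CPM at JQ1 day 3, against 152, 163 and 159.8 CPM at JQ1 day 1. The co-chaperones *DNAJB9* and *dnajc3a* were higher too. *DNAJB9* had 4.51, 10.7 and 13.8 CPM at JQ1 day 3, against 2.46, 3.04 and 1.75 CPM at JQ1 day 1, and *dnajc3a* had a log2 fold change of 1.73 ± 0.50. *TRIB3*, a pseudokinase of the amino acid response, was lower with 92.5, 104 and 75.2 CPM at JQ1 day 3, against 409.7, 219.5 and 145 CPM at JQ1 day 1.

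Chosen after its values were seen, *HSPA5*, the chaperone BiP, had 385, 673 and 1333 CPM at JQ1 day 3, against 479, 281 and 241 CPM at JQ1 day 1, with overlapping groups. *HSP90B1*, its partner in the endoplasmic reticulum, had 191, 393 and 1173 CPM at JQ1 day 3, against 225, 139 and 131 CPM at JQ1 day 1. Replicate 3 of JQ1 day 3, the library highest in interferon genes, was highest in both. Among 46 chaperones, 24 were higher and 22 lower, 3 and 6 of them at an unadjusted p under 0.05 (4.26% and 3.51% of all genes). The libraries did not overlap in 1 higher and 10 lower chaperones (7.12% and 7.51% of all genes). The list's median was 0.09. In the cytosol, *HSP90AB1* had 9416, 4962 and 8197 CPM at JQ1 day 3, against 14205, 12780.1 and 14907 CPM at JQ1 day 1. The inducible *HSP90AA1* was higher, with 77.6, 105 and 63.4 CPM at JQ1 day 3, against 51.0, 37.6 and 27.8 CPM at JQ1 day 1. The chaperonin subunits *CCT5* and *CCT8* were lower, with log2 fold changes of -0.63 ± 0.24 and -0.73 ± 0.27. With ERCC scaling *HSP90AB1*, *CCT5* and *CCT8* were at 0.03, 0.31 and 0.18, against 1.04 over all genes.

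Genes that hold back the cell cycle were in the main lower on day 3 in JQ1 and in DMSO. Of 22 quiescence factors 17 were lower in JQ1, 4 at an unadjusted p under 0.05 (3.51% of all genes), with a median of -0.50 (0.48 with ERCC scaling). In DMSO, 18 of 21 were lower (median -0.47). The median difference between the day effects was 0.14. Of 23 p53 targets 15 were lower in JQ1, 4 at that p (3.51% of all genes), with a median of -0.38 (0.49 with ERCC scaling). In DMSO, 17 of 22 were lower (median -0.19), and the median difference was 0.04. Without replicate 1 of JQ1 day 1 the JQ1 median of the p53 targets was 0.04 with 0 members at that p, and the quiescence factors at that p were 2 without that library and 7 without replicate 2 of JQ1 day 3. *BTG2*, an antiproliferative gene of both lists, had 550.1, 144 and 236 CPM at JQ1 day 3, against 1099, 915 and 585 CPM at JQ1 day 1. *TOB1*, of the same protein family, had 80.5, 93.6 and 52.9 CPM at JQ1 day 3, against 172, 229 and 102 CPM at JQ1 day 1. *GADD45A*, a stress sensor, had 19.3, 18.2 and 13.05 CPM at JQ1 day 3, against 73.4, 31.7 and 23.7 CPM at JQ1 day 1. Cytokine signaling genes lay on both sides, with a median of 0.05. Of 33 tested, 18 were higher, 3 at an unadjusted p under 0.05 (4.26% of all genes), and 15 lower, 2 at that p (3.51%). *pim2*, a kinase downstream of cytokine receptors, had 189, 95.6 and 110.0 CPM at JQ1 day 3, against 368, 232 and 273 CPM at JQ1 day 1. *SOCS2*, a feedback inhibitor of the same receptors, was higher with 11.01, 26.7 and 6.80 CPM at JQ1 day 3, against 1.67, 1.91 and 2.46 CPM at JQ1 day 1 (adjusted p = 0.445). *cirbpb*, a cold-inducible RNA-binding protein chosen after its values were seen, had 1104, 1088 and 869 CPM at JQ1 day 3, against 2917, 2813 and 2491 CPM at JQ1 day 1, and did not pass (adjusted p = 0.312).

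Germ-cell genes were present in JQ1 libraries of both days. All 25 tested were higher at JQ1 day 3, but 0 at an unadjusted p under 0.05 and 0 without overlap, and the median of 0.72 was -0.07 without replicate 2 of that group. Without its replicate 3, 8 lay at that p. *PIWIL1*, the piRNA-binding protein of the germ line, had 204, 516 and 63.4 CPM at JQ1 day 3, against 126, 181 and 264 CPM at JQ1 day 1. *TDRD6* had 153, 184 and 17.6 CPM at JQ1 day 3, against 39.4, 42.3 and 68.8 CPM at JQ1 day 1. Genes of the motile cilium and sperm flagellum had 100 of 115 higher, 2 at an unadjusted p under 0.05 (4.26% of all genes). Their median of 0.85 was -0.14 without replicate 1 of JQ1 day 3. Without replicate 3 of JQ1 day 3, 46 were higher at that p. *dnah5l*, a dynein heavy chain, shows the spread of that group, with 396, 128 and 3.88 CPM at JQ1 day 3, against 81.2, 137 and 70.103 CPM at JQ1 day 1. Liver and plasma protein genes (median 1.00) and muscle genes (median 0.96) likewise had medians below 0 without replicate 3 or replicate 2 of JQ1 day 3, at -0.27 and -0.30.

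Other lists of cell identity held few members at an unadjusted p under 0.05. Of 19 B-cell genes 14 were higher (median 0.52), 2 of them at that p (4.26% of all genes, and 0 to 4 members without any 1 library). At the same p, 1 was lower (3.51% of all genes). *EBF1*, a B-lineage factor, had 4.36, 5.89 and 8.94 CPM at JQ1 day 3, against 1.08, 3.04 and 2.11 CPM at JQ1 day 1. The zebrafish gene *irf4b*, a relative of the human transgene, had 21.9, 6.83 and 14.6 CPM at JQ1 day 3, against 109.6, 35.3 and 18.8 CPM at JQ1 day 1 and overlapped between the days.

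Of 54 keratin and junction genes, 5 were lower at an unadjusted p under 0.05 (3.51% of all genes), and 16 without replicate 2 of JQ1 day 3. Their median was -0.14 (0.98 with ERCC scaling). The median was 0.08 without replicate 1 of JQ1 day 3 and 0.10 without replicate 3 of JQ1 day 1. *krt15* had 42.4, 57.2 and 45.5 CPM at JQ1 day 3, against 67.8, 127 and 402 CPM at JQ1 day 1, and the summed skin markers given above were highest in replicate 3 of JQ1 day 1, as was this gene. Of 34 genes of chromatin silencing 25 were lower, 2 at that p (3.51% of all genes), with a median of -0.26 (0.72 with ERCC scaling). *DNMT1*, the maintenance DNA methyltransferase, had 122, 124 and 141 CPM at JQ1 day 3, against 337, 169 and 227 CPM at JQ1 day 1, while DMSO animals had 518, 764 and 559.9 CPM on day 3 and 619.8, 421 and 161 CPM on day 1. Of 19 Notch genes 12 were lower and 7 higher (median -0.09), with 1 higher at that p (4.26% of all genes). In this list *NOTCH1* (ENSDARG00000052094), the receptor of T-cell commitment, had 115, 15.0 and 21.9 CPM at JQ1 day 3, against 6.39, 13.13 and 5.97 CPM at JQ1 day 1. Without 1 library its log2 fold change was 1.11 to 3.03. Of 42 circadian clock genes 28 were lower (median -0.31), 4 at that p (3.51% of all genes, and 1 to 10 members without any 1 library). At the same p, 3 were higher (4.26% of all genes). In DMSO, 34 of the 42 clock genes were lower on day 3, 9 at that p (2.98% of all genes), with a median of -0.45. The median difference between the day effects was 0.08. *PER1*, a core repressor of the clock, had 179, 253 and 244 CPM at JQ1 day 3, against 477, 365 and 317 CPM at JQ1 day 1.

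Housekeeping lists lay near all genes. Respiratory chain and ATP synthase genes had a median of -0.08 (89 tested), the proteasome -0.05 (49 tested), cholesterol synthesis 0.11 (26 tested) and glycolysis -0.15 (33 tested). Of these 4 lists, 0, 1, 0 and 0 members were higher (4.26% of all genes) and 2, 1, 1 and 2 lower (3.51%) at an unadjusted p under 0.05. Their medians stayed between -0.35 and 0.17 without any 1 library. *PSMF1*, a proteasome inhibitor, was the higher one, with 21.2, 17.5 and 78.9 CPM at JQ1 day 3, against 10.02, 10.6 and 8.77 CPM at JQ1 day 1.

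**Figure D5:**
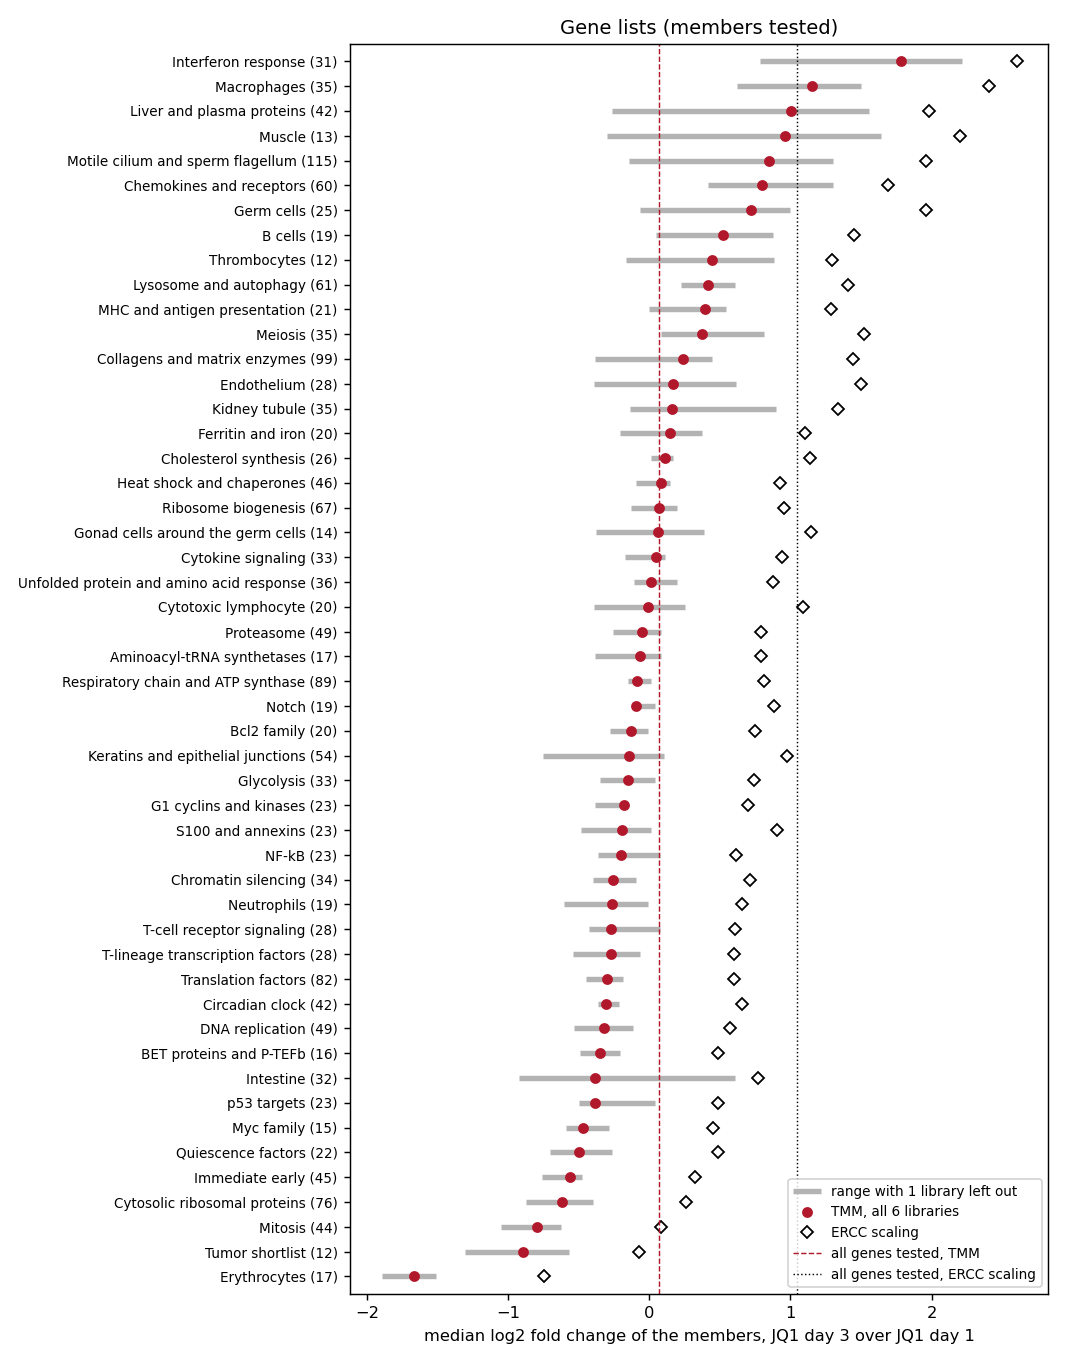
Median log2 fold change of the tested members of each list with at least 10 members, JQ1 day 3 over JQ1 day 1, with TMM (red points), its range when 1 library is left out (grey bars) and with ERCC scaling (open diamonds). The vertical lines mark the median over all genes, 0.07 with TMM and 1.04 with ERCC scaling. Red-cell genes are lowest on both scales (-1.67 and -0.74) and interferon-response genes highest (1.79 and 2.603).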

How the data were processed

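RNA of mCherry-sorted tumor cells was sequenced from 12 zebrafish. The deposited table holds raw counts, which the authors made by mapping strand-specific paired-end reads with STAR 2.5.2a to GRCz11 with ERCC sequences, keeping reads that mapped to 1 place, and counting with featureCounts. Reads of near-identical copies are therefore lost. It lists 25607 zebrafish genes and 92 ERCC sequences beside the 2 transgenes, and another 42 rows for T-cell receptor constructs that are at 0 in every library. Gene names came from a table matched by Ensembl ID (23608 named), and a name shared by several genes is printed with its ID. The authors' DESeq2 1.12.4 tables of JQ1 against DMSO on each day hold fold changes and p-values and were not used.

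Genes were filtered with filterByExpr, scaled by TMM and tested with edgeR 4.0.16 (quasi-likelihood F-test, R 4.3.3) in the 6 JQ1 libraries, with Benjamini-Hochberg adjustment over all genes tested and a threshold of 0.05. DMSO day 3 against DMSO day 1 and the difference between both day effects were fitted likewise. Printed CPM use TMM factors of all 12 libraries. Standard errors are the log2 fold change over the square root of F. Alternatives were DESeq2 1.42.0, ERCC scaling, no filter, all 12 libraries in 1 fit, the replicate number as a block, and each library left out. Scripts were tested on simulated data. Library totals and transgenes were compared by exact permutation tests.

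Genes were named by rule. It took up to 12 in each direction by size of change among those past the threshold, at 10 CPM or more and without overlap, filled up by the lowest p, then the transgenes, HEXIM, myc and shortlist genes, and up to 6 members of lowest p and the most abundant member of each list, of which a few are not reported here. Members and lists were chosen with earlier results of these data known. Sequences and coordinates are not used here.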

Additional observations from a re-analysis of the deposited data

How the results depend on the processing

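The count of genes past the threshold between JQ1 day 3 and JQ1 day 1 was 5 and moved with nearly every choice. It was 187 with DESeq2 (108 higher, 79 lower), 633 with ERCC scaling (619 higher, 14 lower), 8 with no filter (5 higher, 3 lower), and 0 with all 12 libraries in 1 fit. Without 1 library it was 0 to 2, and the 2 came without replicate 2 of JQ1 day 3. In DMSO the count was 0, against 118 with DESeq2 (28 higher, 90 lower), and 0 to 4 without 1 library, with the 4 obtained without replicate 2 of DMSO day 1. For the difference between the day effects it was 0, against 39 with DESeq2 (16 higher, 23 lower), 1 with ERCC scaling, and 0 to 1 without 1 library. Genes whose JQ1 libraries did not overlap numbered 5399 with ERCC scaling (5369 higher, 30 lower), against 2555 with TMM. The cause of these differences was not tested. With the replicate number as a block, 0 genes passed in JQ1 (1543 at an unadjusted p under 0.05), in DMSO and for the difference. Same-numbered JQ1 libraries deviated together by correlations of 0.06, 0.12 and 0.07, so the labels' numbers were not taken to pair animals. Each JQ1 day 3 library correlated best with its own number, for replicate 3 by 0.07 against 0.06 with replicate 1. Whether animals were paired was not tested. The fold change of human IRF4 stayed below 0 (-1.90 to -0.83 without 1 library, -0.70 with ERCC scaling), and the difference in gene counts per ERCC count stayed above 0 (0.50 to 1.28 without 1 library, 0.92 without the 100 genes of highest counts). Of the values of the genes named by rule under these settings, 477 kept direction and side of the threshold, 33 newly passed it and 40 no longer did, and none changed sign while called. Of the list medians, 350 moved by less than the spread between libraries and 90 by more. The left-out libraries for list counts, and for the DMSO and difference medians, were added after seeing the data. With 3 animals a group and 0.188 to 0.295 CPM as the limit of a count of 0, small differences between the days were not detectable.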
